A study of Mus musculus with 18 samples.

Results

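A set of 9 transcripts that are widely used to mark blood neutrophils and monocytes was followed through brain TRAP-RNAseq of mice given lipopolysaccharide (LPS). The set was fixed by name and holds 9 of the 36172 genes in the deposited count table. It comprises the calprotectin subunits S100a8 and S100a9, the specific granule genes Ngp, Camp and Ltf, and the classical monocyte genes Ly6c2, Plac8, S100a4 and Vcan. All animals were Cx3cr1-cre/ERT2+; NuTRAP+ mice of both sexes, induced with tamoxifen at about 3 months of age, so that an EGFP-tagged ribosomal protein was expressed in cells with Cre activity under the Cx3cr1 promoter. After a further 3 to 4 weeks they received 5 mg/kg LPS or phosphate-buffered saline (PBS) intraperitoneally, and brain was taken after 24 h. Each animal gave 1 hemisected brain, whose lysate was sampled before (input) and after pulldown of EGFP-tagged ribosomes with anti-GFP (positive fraction). Input PBS, Input LPS and Positive PBS had 4 libraries each and Positive LPS had 5, named here by animal number, and the input and positive libraries of an animal come from the same tissue. Cx3cr1 is expressed by microglia and border macrophages and also by blood monocytes, and the study delayed tissue collection after tamoxifen because monocytes are renewed quickly. Animals were killed by cervical dislocation or after cardiac perfusion with PBS, and the sources used here do not say which animal had which, so the amount of blood left in each hemisphere is unknown.

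Neutrophils are made in bone marrow and fill their granules in sequence: myeloperoxidase and the elastase family are transcribed first, the specific granule proteins next, and gelatinase granule and surface receptor genes last. S100A8 and S100A9 pair to form calprotectin, a calcium- and metal-binding protein that makes up much of the neutrophil cytosol and is also found in monocytes, and their genes lie near each other. Classical monocytes carry Ly6C on their surface and circulate between marrow, blood and tissue. During systemic inflammation both cell types are released from marrow and adhere to brain vessels. None of the 9 genes is limited to these cells: versican (Vcan) is also a matrix proteoglycan of oligodendrocyte precursors, Ly6C is also found on brain endothelium, and S100a4 is also expressed by fibroblasts and astrocytes. Bulk libraries cannot tell fewer cells of a type from less RNA per cell.

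The input library of animal 271 held 1252 counts and was left out. The other 17 libraries held between 22968939 and 35123345 counts, and the 9 genes together took between 0.000869% and 0.00656% of a library. Values are normalised counts, that is, estimated read counts divided by a size factor per library. Of the 9 genes, 6 passed the filter for testing, which required over 20 normalised counts in every library of at least 1 group, and 14803 genes passed in all. S100a8, S100a9, Ly6c2 and Vcan passed through PBS and LPS groups alike. Ngp and S100a4 passed through LPS groups only, so that a difference between treatments was favoured by the filter. Camp, Ltf and Plac8 did not pass in any group.

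The tagged fraction was checked first. All 9 microglial genes tested were higher in positive than in input libraries, with a median log2 fold change of 4.21 in PBS and 4.00 in LPS animals, while the 6 oligodendrocyte genes were all lower, by a median of -2.19 and -1.78. The label of the set was checked against further markers of the same cells. Ly6g, the usual surface marker of mouse neutrophils, had 0 counts in all 17 libraries, which as a counting limit allows up to 3 counts per library. The lymphocyte genes Ighm, Trbc1 and Trbc2 were also at exactly 0 in all of them. Whether such zeros reflect the RNA or the counting of reads was not tested, so Ly6g is a weak check of the label. Of the primary granule genes Mpo had group means of between 2.71 and 8.57 normalised counts, Elane and Ctsg did not exceed group means of 2.51 and 2.79, and Prtn3 lay between 14.5 and 27.1. The 9 genes did not follow 1 pattern over the 4 groups, as set out below, and are referred to by name rather than as cell types.

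The windows 250 bases upstream of the annotated start sites of S100a8, S100a9 and Ngp are shown because these 3 genes rose with LPS in both fractions. Sequences are from RefSeq (GRCm38.p6), 5′ to 3′ on the gene's strand, and all 9 genes matched a window. Capitals mark the letters TTGCNNAA (a C/EBP form), GAGGAA (the core of PU.1 sites) and TATAAA (the box that places the start of transcription), the first 2 searched on both strands and the last on the gene's strand. The S100a8 window lies at chr3:90668821-90669070 (plus strand), that of S100a9 at chr3:90695722-90695971 (minus strand) and that of Ngp at chr9:110419558-110419807 (plus strand).
S100a8: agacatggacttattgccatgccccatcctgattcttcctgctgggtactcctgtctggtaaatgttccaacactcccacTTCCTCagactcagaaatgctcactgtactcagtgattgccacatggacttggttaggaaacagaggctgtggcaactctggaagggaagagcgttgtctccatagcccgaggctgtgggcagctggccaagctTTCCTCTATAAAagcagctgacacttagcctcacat
S100a9: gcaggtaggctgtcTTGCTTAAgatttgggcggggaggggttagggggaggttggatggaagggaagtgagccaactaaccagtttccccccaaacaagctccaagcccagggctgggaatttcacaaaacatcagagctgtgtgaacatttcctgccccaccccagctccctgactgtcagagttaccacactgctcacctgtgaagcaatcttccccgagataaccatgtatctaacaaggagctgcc
Ngp: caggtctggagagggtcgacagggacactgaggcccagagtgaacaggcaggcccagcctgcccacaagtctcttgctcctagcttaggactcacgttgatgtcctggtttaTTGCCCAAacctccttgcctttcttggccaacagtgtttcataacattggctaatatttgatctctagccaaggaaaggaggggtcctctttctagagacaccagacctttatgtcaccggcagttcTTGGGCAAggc
The S100a8 window held GAGGAA on the opposite strand from 170 and from 36 bases upstream, the second directly followed by TATAAA from 30 bases upstream, and no TTGCNNAA. The S100a9 window held 1 TTGCNNAA match, from 236 bases upstream, and neither of the other motifs. Ngp had 2 TTGCNNAA matches, from 138 and from 11 bases upstream, and no other. Over 32851 mouse windows of the same length, 9.56% held TTGCNNAA, 23.3% GAGGAA and 7.59% TATAAA. The calprotectin genes thus had none of these motifs in common within 250 bases, and a match is a description of letters only.

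S100a8 rose with LPS in both fractions and far more in the tagged fraction. In Input PBS its normalised counts were 113, 64.0, 76.9 and 57.2 in animals 268, 272, 273 and 506, and in Input LPS they were 418, 426, 114 and 296 in animals 266, 267, 270 and 507. Positive PBS libraries held 24.2, 5.71, 23.5 and 10.2 in the same order of animals, and Positive LPS libraries 548, 382, 167, 599 and 377 in animals 266, 267, 270, 271 and 507. Every LPS library lay above every PBS library of its fraction, although the margin in input was narrow, between animal 270 (114) and animal 268 (113). The log2 fold change with LPS was 2.00 ± 0.42 (SE) in input (edgeR quasi-likelihood test, adjusted p = 0.00302) and 4.73 ± 0.50 in the positive fraction (adjusted p = 9.38e-07). The difference between these effects, tested as an interaction in edgeR, was 2.72 ± 0.65 (adjusted p = 0.0141). Without animals 506 and 507, whose numbers lie apart from the others, the difference was 2.70 and no longer passed (edgeR adjusted p = 0.113).

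S100a9, the partner of S100a8, also rose in both fractions, and no difference between them was called. Normalised counts in Input PBS were 189, 105, 80.6 and 54.8 (animals 268, 272, 273 and 506) and in Input LPS 519, 505, 174 and 388 (animals 266, 267, 270 and 507). In Positive PBS they were 44.7, 14.3, 2.37 and 12.7, and in Positive LPS 119, 75.2, 51.9, 56.3 and 56.3 (animals 266, 267, 270, 271 and 507). The input groups overlapped, since animal 270 (LPS) lay below animal 268 (PBS), while in the positive fraction every LPS library lay above every PBS library. The log2 fold change was 1.88 ± 0.46 in input (edgeR adjusted p = 0.00915) and 1.90 ± 0.53 in the positive fraction (adjusted p = 0.00818), and their difference was 0.02 (adjusted p = 0.991), or between -0.40 and 0.91 with 1 library left out. Without the positive library of animal 268, the highest of its group, the value in the positive fraction was 2.79. The rise in input missed the threshold without animals 506 and 507 (1.67, edgeR adjusted p = 0.0896) and on the deposited log2 values (1.94, limma adjusted p = 0.0724).

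**Figure D1:**
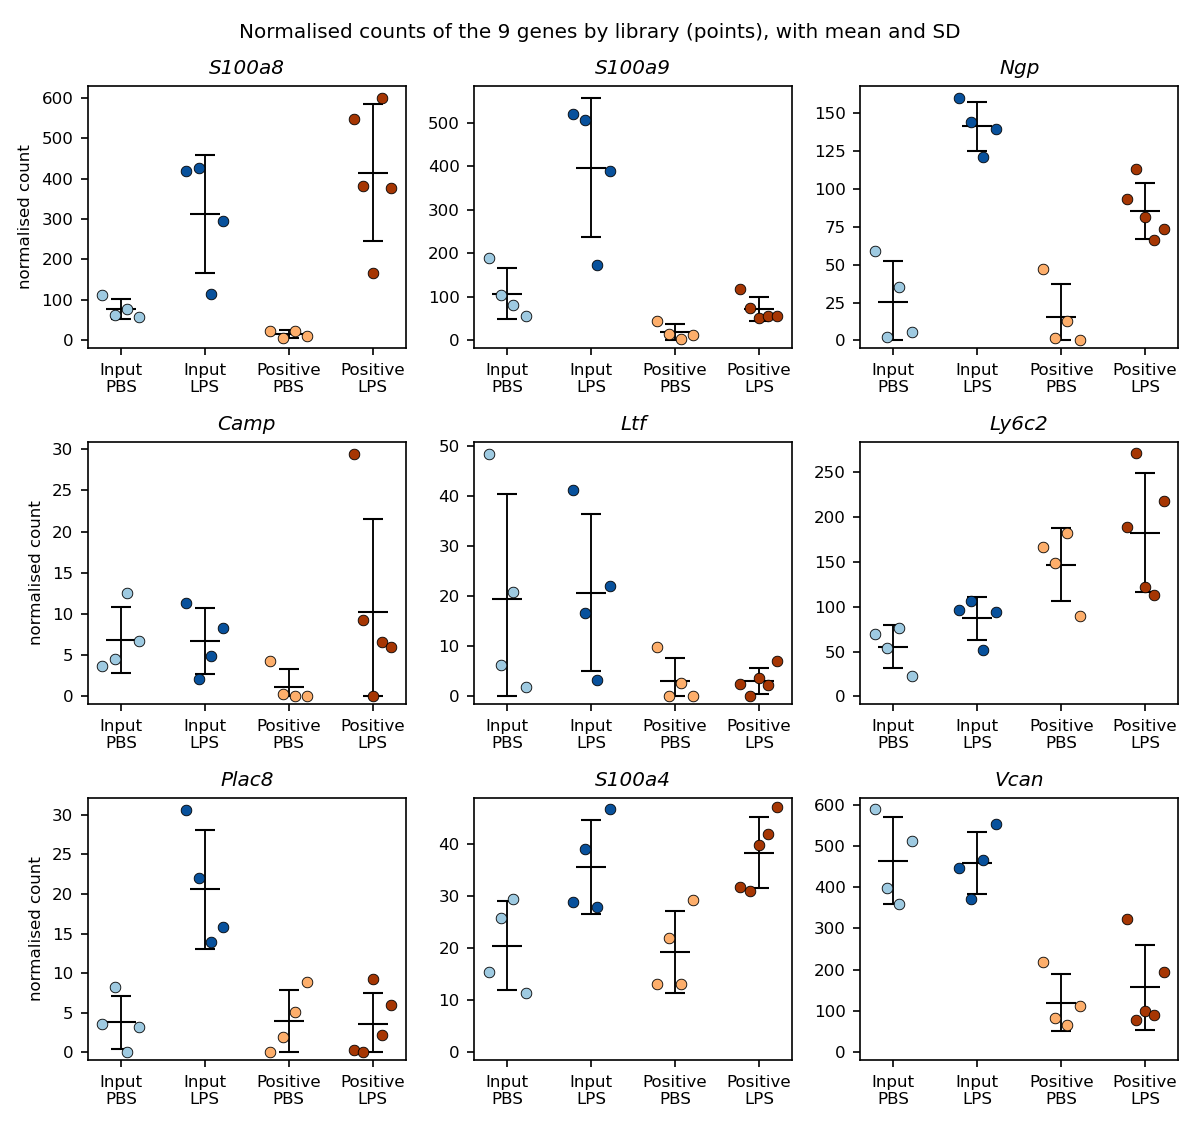
Normalised counts (vertical axes, linear, each gene on its own scale) of the 9 genes in the 4 groups, 1 point per library, with the group mean and SD. S100a8 in Positive LPS (167 to 599) reaches the level of Input LPS (114 to 426), whereas S100a9 in Positive LPS (51.9 to 119) stays below Input LPS (174 to 519). Lower error bars that would pass 0 end at 0.

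The 2 calprotectin genes therefore parted in the tagged fraction of LPS animals. In PBS animals both were depleted from the positive fraction, S100a8 by -2.32 ± 0.52 on the log2 scale (edgeR adjusted p = 0.00148) and S100a9 by -2.49 ± 0.54 (adjusted p = 0.00104), or -3.38 without the positive library of animal 268. In LPS animals S100a9 was again depleted, -2.47 ± 0.44 (edgeR adjusted p = 9.75e-05), and S100a8 was not called either way, 0.40 ± 0.37 (adjusted p = 0.362). Within single animals with both libraries, the log2 ratio of positive over input for S100a8 was -2.18, -3.28, -1.67 and -2.38 in PBS animals 268, 272, 273 and 506 and 0.39, -0.16, 0.55 and 0.35 in LPS animals 266, 267, 270 and 507. For S100a9 the same ratio was -2.06, -2.79, -4.60 and -2.02 in the PBS animals and -2.12, -2.73, -1.72 and -2.77 in the LPS animals. The treatments did not overlap for S100a8 and overlapped for S100a9. The fraction and treatment comparisons share libraries, so they are not independent of each other.

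Levels of the 2 genes were compared per kb of exon (694 bases for S100a8 and 522 for S100a9). In Input PBS S100a8 averaged 112 ± 36.04 (SD, n = 4) and S100a9 206 ± 111 normalised counts per kb, and in Input LPS 452 ± 210 and 760 ± 306 (n = 4). In Positive LPS the order was the opposite, 598 ± 245 for S100a8 and 137 ± 53.5 for S100a9 (n = 5). The ratio of S100a8 over S100a9 per kb lay between 0.451 and 0.784 in Input PBS, between 0.494 and 0.635 in Input LPS and between 2.42 and 8.001 in Positive LPS. In Positive PBS it was 0.408, 0.301 and 0.602 in animals 268, 272 and 506, and 7.45 in animal 273, where it rests on 18 counts of S100a8 and 1.82 of S100a9. All 4 LPS animals with both libraries had a ratio below 1 in input and above 2.4 in the positive fraction. This ratio was chosen after its values were seen and was not tested.

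**Figure D2:**
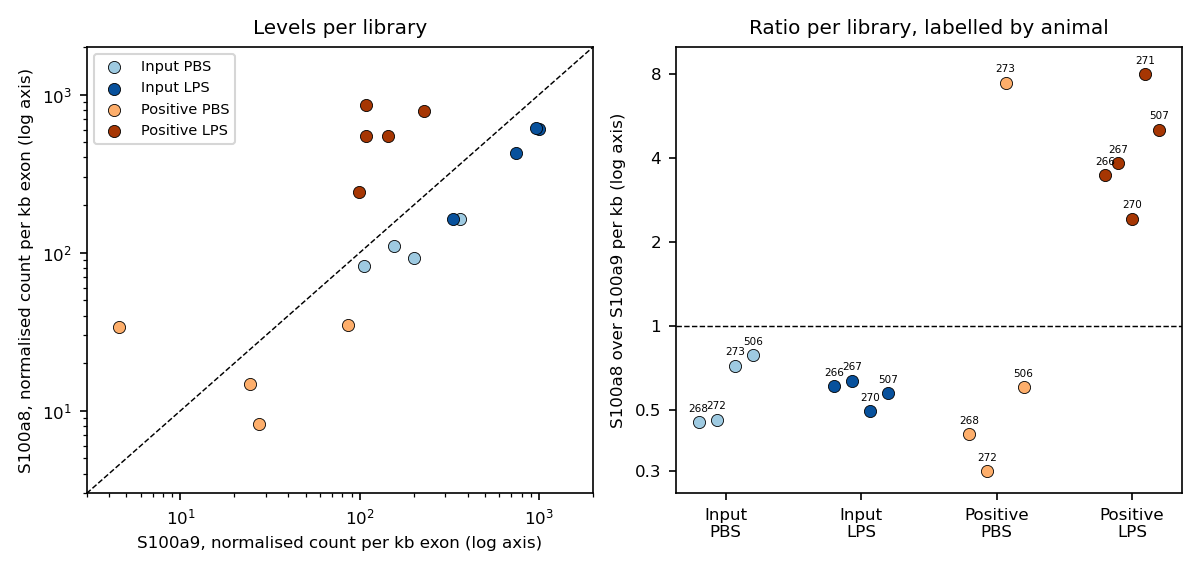
Left, S100a8 against S100a9 in normalised counts per kb of exon (log axes, dashed line at equality), 1 point per library; right, the ratio of the 2 per library (log axis), labelled with the animal number. All 8 input libraries and 3 of 4 Positive PBS libraries lie below a ratio of 1 and the 5 Positive LPS libraries between 2.42 and 8.001.

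Ngp, which encodes a cathelicidin-related protein of specific granules, rose with LPS in both fractions. Its normalised counts were 58.8, 2.06, 35.1 and 5.72 in Input PBS (animals 268, 272, 273 and 506) and 160, 144, 121 and 140 in Input LPS (animals 266, 267, 270 and 507). Positive PBS held 46.8, 1.90, 13.1 and 0 and Positive LPS 93.1, 113, 81.6, 66.3 and 73.4. The treatments did not overlap in either fraction, while PBS animals spread widely, with animal 268 highest in both fractions. The log2 fold change was 2.46 ± 0.70 in input (edgeR adjusted p = 0.0245) and 2.45 ± 0.74 in the positive fraction (adjusted p = 0.0131), and the difference between them was -0.01 (adjusted p = 0.998). In input the call was lost with DESeq2 (adjusted p = 0.056), without animals 506 and 507 (edgeR adjusted p = 0.102) and without the input library of animal 266, 272 or 506 in turn (edgeR adjusted p of 0.0549, 0.0629 and 0.0727). Without both libraries of animal 268 the values rose to 3.28 and 4.15. Positive against input was -0.71 ± 0.80 in PBS animals (edgeR adjusted p = 0.487) and -0.73 ± 0.60 in LPS animals (adjusted p = 0.31). With the animal as a replicate block the latter was -0.66 and passed (edgeR adjusted p = 0.0183), and all 8 animals had a ratio below 0, from -2.75 to -0.08.

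Camp and Ltf, the other specific granule genes, were near the detection limit and were not tested. Camp, the mouse cathelicidin, held between 2.13 and 12.6 normalised counts in the 8 input libraries, and its Input PBS and Input LPS means were 6.85 ± 4.03 and 6.68 ± 4.02 (SD, n = 4). In the positive fraction it was 4.36, 0.255, 0 and 0 in PBS animals (268, 272, 273 and 506) and 29.4, 9.32, 0, 6.63 and 6.04 in LPS animals (266, 267, 270, 271 and 507), so that 4 of 5 LPS libraries lay above every PBS library. Ltf, which encodes the iron-binding lactoferrin, was 48.3, 6.19, 20.9 and 1.91 in Input PBS and 41.1, 16.5, 3.28 and 21.9 in Input LPS. Its positive libraries held between 0 and 9.80 in PBS and between 0 and 7.04 in LPS animals. Fitted without the filter on low counts, the log2 fold change with LPS in input was -0.01 for Camp and 0.09 for Ltf (edgeR adjusted p of 1 and 0.998), against 2.46 for Ngp. In the positive fraction that fit gave 3.02 ± 1.06 for Camp (edgeR adjusted p = 0.0393), on a sum of 4.27 estimated counts in the 4 PBS libraries, and Ltf was lower in positive than in input LPS libraries (-2.68 ± 0.89, adjusted p = 0.0192). The responses of the 3 genes were not compared by a test, and the SE of the input values was 0.86 for Camp and 0.78 for Ltf.

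Ly6c2, 1 of the genes for the Ly6C antigen, was higher in the tagged fraction and was not called for LPS. It held 69.5, 53.7, 76.5 and 22.9 normalised counts in Input PBS (animals 268, 272, 273 and 506) and 96.6, 107, 51.7 and 93.7 in Input LPS (animals 266, 267, 270 and 507). Positive libraries held 167, 149, 183 and 89.2 with PBS and 189, 271, 122, 113 and 218 with LPS. Treatments overlapped in both fractions, and every animal had more in its positive than in its input library, with log2 ratios of between 1.247 and 1.92 in PBS and between 0.96 and 1.34 in LPS animals. Positive against input was 1.40 ± 0.35 in PBS (edgeR adjusted p = 0.00333) and 1.07 ± 0.33 in LPS animals (adjusted p = 0.00883), and LPS changed it by 0.65 ± 0.35 in input (adjusted p = 0.241) and 0.31 ± 0.32 in the positive fraction (adjusted p = 0.45). Of all 42-base stretches of the Ly6c2 transcripts, the length of a trimmed read, 17.8% also occur in transcripts of other genes, mostly its neighbour Ly6c1, so its counts are uncertain. Ly6c1 had the pattern most like it (Pearson r = 0.948 over 17 libraries) and positive against input values of 1.59 and 0.78, both called. Of the 9 endothelial genes tested, Ly6c1 among them, 8 were higher in positive than in input of PBS and 5 of LPS animals, with medians of 1.45 and 0.71. Of 19 other monocyte genes tested, 10 were higher and 3 lower in PBS and 9 higher and 3 lower in LPS animals (medians 1.01 and 0.48). Which cells the Ly6c2 signal came from was not tested.

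Plac8, a small cysteine-rich protein abundant in myeloid cells, showed its highest values in Input LPS. It held 3.65, 8.26, 0 and 3.22 normalised counts in Input PBS and 30.6, 21.97, 13.96 and 15.9 in Input LPS, with no overlap. In the positive fraction it stayed between 0 and 8.92 with PBS and between 0 and 9.27 with LPS, and the treatments overlapped. It was not tested in the filtered data. Without the filter the log2 fold change with LPS in input was 2.46 ± 0.81 (edgeR adjusted p = 0.066), and Plac8 was lower in positive than in input of LPS animals by -2.45 ± 0.76 (adjusted p = 0.0122).

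S100a4, a calcium-binding protein of motile cells, was at like levels in both fractions. Normalised counts were 15.5, 25.8, 29.4 and 11.4 in Input PBS and 28.9, 39.1, 27.9 and 46.8 in Input LPS, and 13.1, 21.9, 13.1 and 29.3 in Positive PBS and 31.9, 31.1, 39.9, 42.0 and 47.1 in Positive LPS. The treatments overlapped in input and not in the positive fraction, where the gap lay between 29.3 and 31.1. In the positive fraction the log2 fold change with LPS was 0.99 ± 0.31 (edgeR adjusted p = 0.0171) and the gene was called higher, while in input it was 0.79 ± 0.32 (adjusted p = 0.104), a difference of 0.20 ± 0.44 (adjusted p = 0.866). The call was lost without the positive library of animal 268 or 273 (edgeR adjusted p of 0.0574 and 0.0569) and without both libraries of animal 268 (0.0628). Positive against input was -0.08 in PBS and 0.11 in LPS animals (edgeR adjusted p of 0.855 and 0.751), with an SE of 0.29 on the latter.

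Vcan was depleted from the tagged fraction and did not pass the test for LPS. It held 589, 398, 359 and 512 normalised counts in Input PBS, 447, 371, 466.1 and 553 in Input LPS, 219, 84.1, 66.6 and 112 in Positive PBS, and 323, 78.7, 101, 91.7 and 195 in Positive LPS. Every positive library lay below every input library, and treatments overlapped in both fractions. Positive against input was -1.94 ± 0.40 in PBS (edgeR adjusted p = 0.000635) and -1.55 ± 0.36 in LPS animals (adjusted p = 0.00125), whereas the log2 fold change with LPS was -0.02 in input (adjusted p = 0.983) and 0.38 ± 0.38 in the positive fraction (adjusted p = 0.453). Pdgfra, the receptor that marks oligodendrocyte precursors, gave -1.83 and -1.64 for positive against input, both called lower. Of the 10 precursor genes tested 8 and 7 were lower, with medians of -1.19 and -1.28. The medians of the oligodendrocyte genes were -2.19 and -1.78, and those of the choroid plexus genes -1.51 and -1.38. With LPS, unlike Vcan, 7 precursor genes fell in input (median -0.743). In the positive fraction 6 fell (median -0.655) and 1, Pdgfra, rose. Which cells the Vcan signal came from was not tested. Per kb of exon Vcan averaged 32.1 ± 7.30 in Input PBS (SD, n = 4), below the 112 of S100a8.

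**Figure D3:**
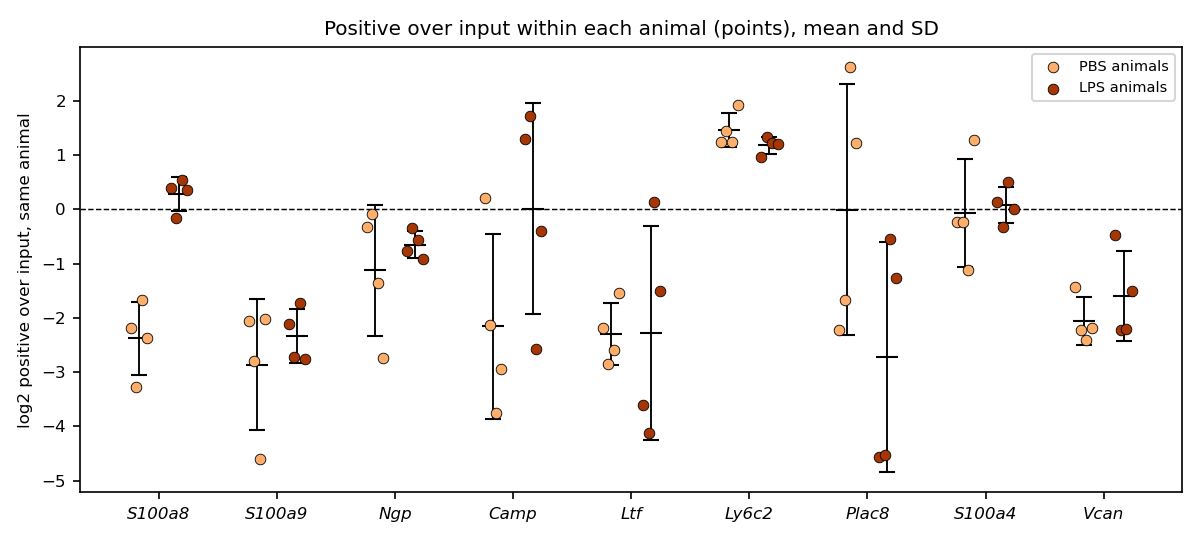
Log2 of positive over input (normalised count + 1) within each animal for the 9 genes, 1 point per animal (4 PBS, 4 LPS), with mean and SD and a dashed line at equal levels. S100a8 moves from a mean of -2.38 in PBS to 0.28 in LPS animals, S100a9 (-2.87 and -2.33) and Vcan (-2.06 and -1.60) stay below 0, and Ly6c2 (1.47 and 1.18) stays above 0.

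Counted over the set, in input LPS raised 3 of the 9 genes (S100a8, S100a9 and Ngp), lowered 0, left 3 uncalled and 3 untested, where 7.16% of all genes tested were higher and 5.26% lower. In the positive fraction 4 were higher (S100a4 in addition) and 0 lower, against 19.0% and 14.9% of all genes tested. Positive against input called 1 gene higher and 3 lower in PBS animals, where 21.0% and 18.8% of all genes were called, and 1 higher and 2 lower in LPS animals, against 27.6% and 25.8%. The interaction of LPS with fraction was called, among the 9 genes, for S100a8 alone, and over all genes it was called higher for 5.46% and lower for 1.42% of all genes. Since Ngp and S100a4 passed the filter through LPS groups only, the counts for LPS are descriptions.

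Other neutrophil genes were taken from lists written with earlier results of these data known. Of 21 genes of the mature neutrophil surface and cytoplasm, 14 were tested. With LPS, 9 rose in input with 0 lower (median log2 fold change 1.76), and 10 rose and 2 fell in the positive fraction (median 4.93), where the medians over all genes tested were 0.00 and 0.01. The difference between fractions was called higher for 6 and lower for 0. These counts and medians are descriptions, because 7 of the 14 genes passed the filter through LPS groups only and were thereby favoured to rise. The other 7, which passed through a PBS group, gave 3 higher and 0 lower in input (median 0.24), 3 higher and 2 lower in the positive fraction (median 0.17), and 2 higher for the difference. The 4 most abundant were Csf3r, Fpr1, Il1r2 and 1810033B17Rik (the file's symbol for Mcemp1).

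Fpr1, a receptor for bacterial formyl peptides, held between 10.2 and 23.7 normalised counts in Input PBS and between 92.4 and 257 in Input LPS. In the positive fraction it moved from between 21.9 and 29.4 with PBS to between 335 and 2960 with LPS, and its difference between fractions was 2.86 ± 0.81 (edgeR adjusted p = 0.0395). Il1r2, the decoy receptor for interleukin 1, passed the filter through LPS groups only and is given as a description. It moved from between 5.88 and 19.95 to between 333 and 2944 in the positive fraction, with a difference of 3.66 ± 0.86 (edgeR adjusted p = 0.0132). For 1810033B17Rik the difference was 4.56 ± 0.52 (edgeR adjusted p = 3.73e-05). Csf3r, the receptor for granulocyte colony-stimulating factor, was already high in Positive PBS (1827 ± 180, SD, n = 4) and was lower with LPS there (log2 fold change -0.91).

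Retnlg, chosen after its values were seen and also past the filter through LPS groups only, encodes a resistin-like protein of granulocytes. It lay between 18.04 and 35.5 normalised counts in Input PBS and between 36.1 and 115 in Input LPS, and between 2.18 and 7.64 in Positive PBS and 1.86 and 29.4 in Positive LPS. Like S100a9 it rose in both fractions (1.79 ± 0.46 and 2.15 ± 0.63, edgeR adjusted p of 0.0129 and 0.011). Retnlg was also lower in positive than in input in PBS and LPS animals (-2.45 ± 0.63 and -2.09 ± 0.44, edgeR adjusted p of 0.00408 and 0.000512). It passed the filter through Input LPS alone, where its lowest value was 36.1. The filter thus favoured both its rise in input and its lower level in the positive fraction of LPS animals. These values are therefore descriptions. Over the 14 tested genes of the list, positive against input called 2 higher and 3 lower in PBS animals (median -0.02). In LPS animals 9 were higher and 3 lower (median 3.03), the opposite direction to Retnlg. The 7 genes that passed the filter through a PBS group gave 3 higher and 2 lower in LPS animals (median -0.04).

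Among 12 further genes of specific and gelatinase granules, 7 were tested. In input 6 rose with LPS and 0 fell (median 2.07), and in the positive fraction 5 rose and 0 fell (median 3.22), with 1 called higher (Hp) and 1 lower (Mmp9) for the difference. Hp, Mmp8 and Chi3l3 passed the filter through LPS groups only, so these counts too are descriptions. The other 4 genes gave 3 higher and 0 lower in input (median 1.42), 2 higher and 0 lower in the positive fraction (median 0.62), and 0 higher and 1 lower for the difference. Lcn2, the siderophore-binding lipocalin, averaged 179 ± 38.9 and 7997 ± 1737 normalised counts in Input PBS and Input LPS (SD, n = 4) and 257 ± 97.9 (n = 4) and 20036 ± 6068 (n = 5) in the positive fraction. Hp, the haemoglobin scavenger haptoglobin, rose by 2.57 ± 0.53 in input and by 5.79 ± 0.58 in the positive fraction, and the difference of 3.22 ± 0.79 was called (edgeR adjusted p = 0.0168). Mmp9, a gelatinase, was called lower for that difference (-1.70), and Pglyrp1, a peptidoglycan-binding granule protein, rose in both fractions (1.47 and 0.97). Chi3l3 (Chil3, a chitinase-like protein), singled out after its values were seen, rose by 3.35 and 3.41. It was lower in positive than in input by -2.98 and -2.92, and all 4 values were called. Over the 7 tested genes of the list, positive against input called 2 higher and 1 lower in PBS animals (median -0.22). In LPS animals it called 2 higher, Hp (2.55) among them, and 2 lower (median 0.02). Chi3l3 passed the filter through Input LPS alone (lowest value 37.77, against 9.275 in Positive LPS). Its rise in input and its lower level in the positive fraction of LPS animals were thus favoured by the filter, and are descriptions.

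**Figure D4:**
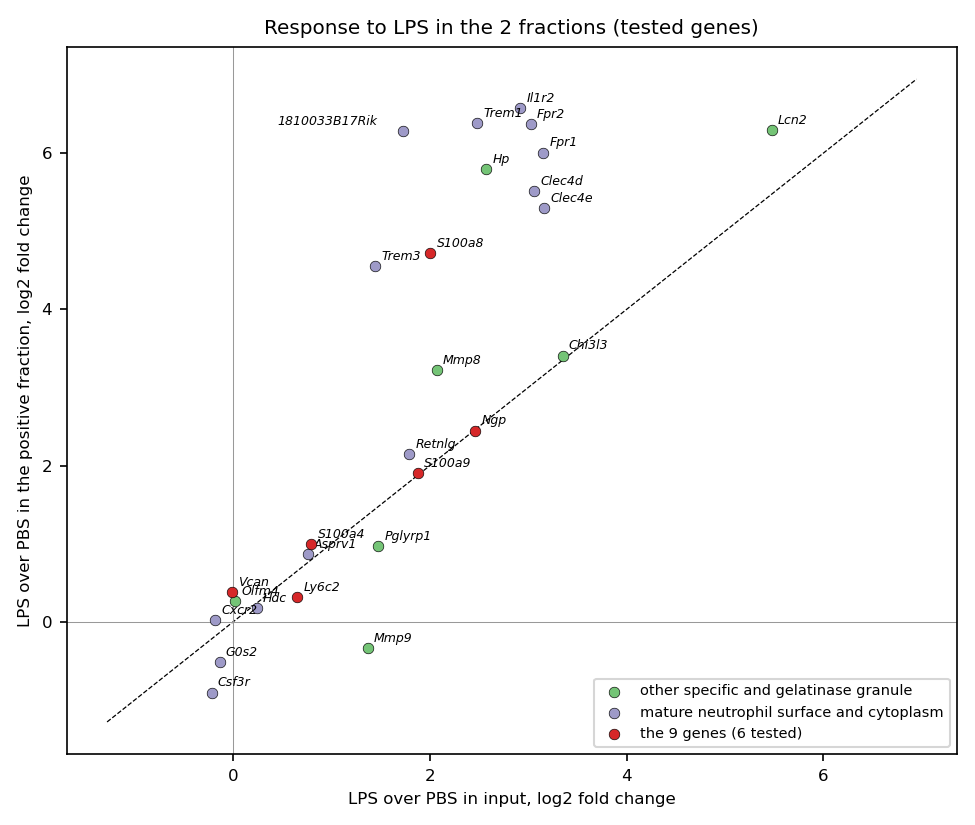
Log2 fold change with LPS in the positive fraction (vertical axis) against that in input (horizontal axis) for the tested genes of the set and of the 2 neutrophil lists, 1 point per gene, with a dashed line at equal effects. S100a9 (1.88, 1.90), Ngp (2.46, 2.45), Retnlg (1.79, 2.15) and Chi3l3 (3.35, 3.41) lie near the line, and S100a8 (2.00, 4.73), Hp, Fpr1, Il1r2 and 1810033B17Rik lie above it.

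Of the transcription factors known to drive granule and myeloid genes, Sfpi1 (Spi1, encoding PU.1), Cebpb, Cebpa and Cebpd were tested, and all 4 were higher in positive than in input libraries in PBS and LPS animals, with medians of 2.46 and 2.43. Cebpb rose from 1909 ± 383 (SD, n = 4) to 5756 ± 727 (n = 5) normalised counts in the positive fraction, and its difference between fractions was 0.84 ± 0.24 (edgeR adjusted p = 0.0405). Cebpa went the other way, from 4211 ± 161 (SD, n = 4) to 3055 ± 880 (n = 5), a log2 fold change of -0.46 ± 0.17 (edgeR adjusted p = 0.0341) with a difference between fractions of -0.91 ± 0.25 (adjusted p = 0.0314). Sfpi1 and Cebpd were higher with LPS in both fractions and not called for the difference. Cebpe and Gfi1, factors of maturing granulocytes, did not exceed group means of 1.39 and 1.41 normalised counts. The receptors of calprotectin were also found in the tagged fraction. Tlr4 averaged 40.1 ± 5.83 and 326 ± 37.2 in Input PBS and Positive PBS (SD, n = 4), and all 3 receptor genes tested (Bsg, Tlr4 and Cd36) were higher in positive than in input in PBS and LPS animals, while Ager was not tested.

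Of 22 other monocyte genes 19 were tested, with 8 higher and 0 lower with LPS in input (median 0.53) and 10 higher and 3 lower in the positive fraction (median 0.43). Of the 19, 3 passed the filter through LPS groups only, and the other 16 gave 6 higher and 0 lower (median 0.47) and 7 higher and 3 lower (median 0.12). Positive against input called 10 higher and 3 lower in PBS animals (median 1.01) and 9 higher and 3 lower in LPS animals (median 0.48). Lyz2 and F13a1 were higher in positive than in input by 4.14 and 4.02 in PBS animals, Fn1 measured 0.64 and was not called, and neither Lyz2 nor F13a1 was called for LPS in either fraction. Ms4a6b rose by 2.10 in input and 2.63 in the positive fraction, and Fn1 fell by 0.79 in the positive fraction. Ccr2, the receptor of classical monocytes and singled out after its values were seen, fell in the tagged fraction, where S100a8 rose. Ccr2 lay between 30.5 and 59.7 normalised counts in Positive PBS and between 3.31 and 15.3 in Positive LPS. The log2 fold change was -2.33 ± 0.40 there (edgeR adjusted p = 0.000139) and -0.41 ± 0.44 in input (edgeR adjusted p = 0.591). The difference between fractions was not called (-1.93, edgeR adjusted p = 0.0607). Ccr2 passed the filter through Positive PBS alone. A fall with LPS in the tagged fraction was thereby favoured, and is a description.

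Markers of other blood cells moved beside these results. The 7 erythrocyte genes summed to 7065, 6042, 5679 and 2104 normalised counts in Input PBS (animals 268, 272, 273 and 506) and to between 1755 and 2875 in Input LPS. Animal 506 lay within the LPS range, and in this sum animal 268 was highest, as it was among PBS animals for S100a8, S100a9 and Ngp. Sums in the positive fraction lay between 363 and 1135 with PBS and between 297 and 680 with LPS. All 5 erythrocyte genes tested were lower in positive than in input in both treatments, with medians of -3.03 and -2.23. S100a9 gave -2.49 and -2.47, and the oligodendrocyte genes had medians of -2.19 and -1.78. With LPS in input 0 erythrocyte genes rose and 3 of the 5 fell (median -1.10), opposite in direction to S100a8, S100a9 and Ngp. The 15 lymphocyte genes, 3 of them at 0 in all libraries, summed to between 39.4 and 62.1 in input, between 111 and 193 in Positive PBS and between 256 and 398 in Positive LPS. Cd79b alone averaged 118.7 and 304.3 in Positive PBS and Positive LPS, beside mean sums of 148.5 and 328.7, so the rise of the sum rests on Cd79b. Cd3d, the next most abundant, averaged 14.3 and 10.6 there. Only Cd79b was tested, and it was higher with LPS in input (1.08 ± 0.35, edgeR adjusted p = 0.0442) and in the positive fraction (1.35 ± 0.22, adjusted p = 9.09e-05) and higher in positive than in input of PBS and LPS animals (4.12 and 4.39). These last values were near the medians of the microglial genes (4.21 and 4.00), and which cells the Cd79b signal came from was not tested. The part of blood content in the results for the 9 genes was not tested.

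**Figure D5:**
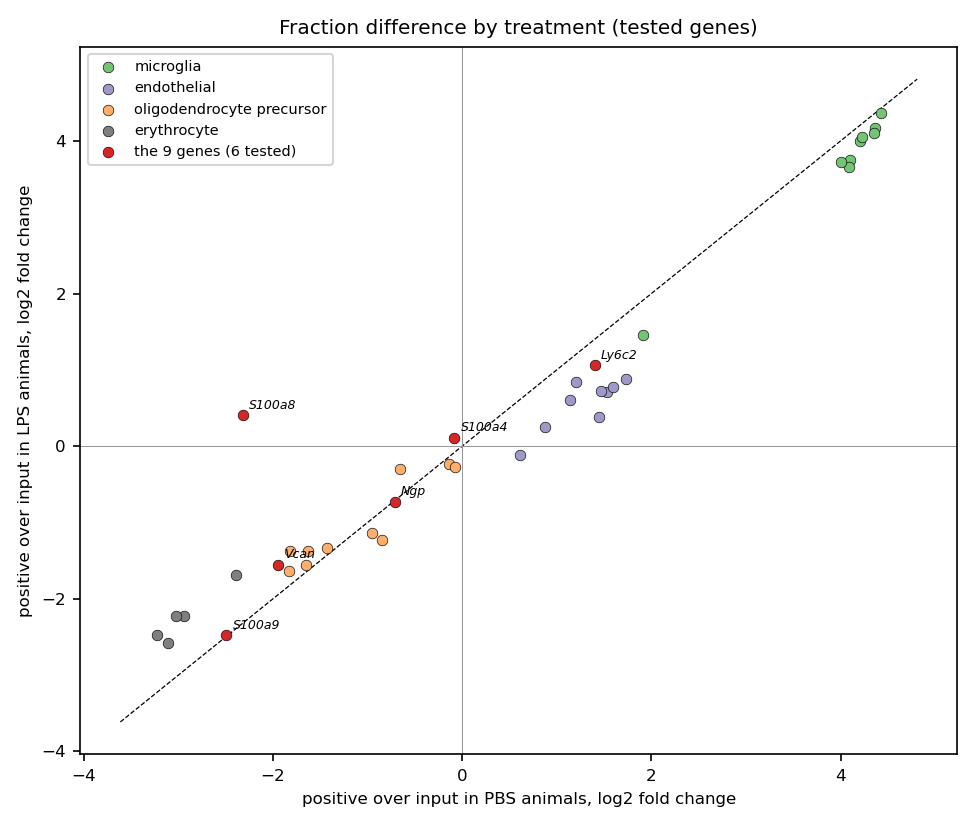
Log2 fold change of positive over input in LPS animals (vertical axis) against PBS animals (horizontal axis) for the 6 tested genes of the set (named) and for tested microglial, endothelial, oligodendrocyte precursor and erythrocyte genes, 1 point per gene, with a dashed line at equal values. S100a8 (-2.32, 0.40) lies off the line, and S100a9 (-2.49, -2.47) lies near the erythrocyte genes. Vcan (-1.94, -1.55) lies among the precursor genes and Ly6c2 (1.40, 1.07) beside the endothelial genes. Oligodendrocyte genes (medians -2.19, -1.78) also lie near S100a9 and Vcan, choroid plexus genes (medians -1.51, -1.38) near Vcan, and other monocyte genes (medians 1.01, 0.48) near Ly6c2. They are not plotted, and which cells these signals came from was not tested.

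Genes whose level over the 17 libraries was most like that of each member were listed as a description, since libraries of a group share treatment, fraction and preparation. S100a8 was closest to Tmbim1, Il18bp and the neutrophil collagenase Mmp8 (Pearson r of 0.924, 0.913 and 0.906), and S100a9 to Arrdc2, Aldh1a2 and Mat2a (0.923, 0.922 and 0.918). Ngp was closest to Lrg1, Oplah and Il18bp (0.900, 0.878 and 0.876), and S100a4 to Saa1 (0.867). Vcan was closest to 1700003D09Rik, Pxdn and Snhg11 (0.983, 0.982 and 0.979). S100a8 and S100a9 thus had no gene in common among their 3 closest.

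In mm10 coordinates S100a4, S100a8 and S100a9 lie within the S100 cluster of chromosome 3, at 90603770 to 90606045, 90669071 to 90670034 and 90692633 to 90695691. Ngp, Camp and Ltf lie on chromosome 9, at 110419808 to 110423012, 109847377 to 109849456 and 111019292 to 111042766. The remaining 3 are Plac8 on chromosome 5 (100553733 to 100572205), Vcan on chromosome 13 (89655310 to 89742512) and Ly6c2 on chromosome 15 (75108161 to 75111949). Of 14 other S100 genes 9 were tested, and 3 rose with LPS in input and 4 in the positive fraction with 0 lower in either, at medians of 0.28 and 0.35. No 42-base stretch of S100a8, S100a9, Ngp, Camp, Ltf, Plac8 or Vcan transcripts occurs in another gene's transcripts, and 48.2% of those of S100a4 also occur in Gm42674, a gene model that is not in the count table.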

How the data were processed

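Per the file headers and the study's methods, polyA libraries gave paired 50-base reads, which the authors trimmed and aligned to mm10 with strand in Strand NGS. They deposited estimated counts per gene and DESeq-normalised log2 values. Of the nonzero counts 81.6% were not whole, and counts were rounded for count models. The log2 values served only as an alternative. Size factors were medians of ratios over 15766 genes (0.766 to 1.32). Genes with over 20 normalised counts in every library of at least 1 group (14803) were fitted with edgeR 4.0.16 (quasi-likelihood, 4 groups, 13 residual degrees of freedom) in R 4.3.3. A call needed a fold over 1.25 and, after Benjamini-Hochberg adjustment, a p under 0.05. Each SE of a log2 fold change is its absolute value divided by the square root of the quasi-likelihood F statistic. It was thus derived from the test and is approximate. The procedure was tested on simulated data. The members, lists and tests were chosen with earlier results of these data known. Named genes are the 9 members and up to 4 most abundant genes per list, unless said otherwise. Ratios within animals used log2(normalised count + 1). Exon lengths and transcripts were from GENCODE. Both libraries of an animal come from the same tissue, and their deviations from group means correlated (r from 0.162 to 0.519), so the animal served as a block in an alternative. Alternatives were TMM and total count scaling, DESeq2 1.42.0, limma 3.58.1, filters, a fold of 2, sex, and leaving out libraries or animals.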

Additional observations from a re-analysis of the deposited data

Results flagged for a closer look

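The LPS effect on S100a8 differed between fractions by 2.72 on the log2 scale (edgeR interaction, adjusted p = 0.0141), with 5 of 5 LPS libraries above 4 of 4 PBS libraries in the positive fraction and 4 of 4 above 4 of 4 in input. Camp in Positive PBS was 4.36 normalised counts in animal 268 and at or below 0.255 in the 3 other libraries, which set that library apart from its group by Dixon's criterion. It was 1 of 54 groups of values examined, and chance alone flags about 1 in 20.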

How the results depend on the processing

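The number of members called moved by over 1.5 times only without animals 506 and 507, to 1 for LPS in input and 0 for the difference between fractions. Over the libraries left out in turn it stayed between 2 and 3 for LPS in input, 3 and 4 for LPS in the positive fraction, and 4 and 5 for positive against input in PBS animals, and at 3 and 1 for the other comparisons. With the animal as a replicate block, Ngp was called lower in positive than in input of LPS animals (-0.66) and no other call changed. The block was fitted in edgeR for positive against input and for the difference, and in limma for the LPS effects. S100a8 with LPS in the positive fraction kept its direction and call in all 32 alternatives (4.41 to 5.03). Sign changes occurred only in values that were not called. For Ngp the difference between fractions was 0.39 with limma, 0.01 with TMM scaling and with all 18 libraries, 0.18 with the replicate block, 0.00 with sex, 0.20 on the deposited log2 values, 0.87 without animal 268, and -0.83 to 1.69 leaving out 1 library, and its positive against input value in PBS animals ran from -2.42 to 0.11. For S100a9 the difference was -0.04 with total count scaling, -0.13 without animal 270 and -0.40 to 0.91 leaving out 1 library. For S100a4, positive against input in LPS animals was -0.07 with total count scaling and 0.00 without animal 270, in PBS animals -0.33 to 0.14 leaving out 1 library, and the difference -0.03 to 0.45. For Vcan, LPS in input was 0.01 with total count scaling, 0.12 without animal 268, 0.02 on the deposited log2 values, 0.00 with all 18 libraries and -0.12 to 0.12 leaving out 1 library; LPS in the positive fraction was -0.05 to 0.84 and the difference -0.03 to 0.85. The cause of these changes was not tested. The alternatives leaving out animals 268 and 270 were chosen after seeing the data. Camp, Ltf and Plac8 held under 3 counts in several libraries, so depth limits them most, and limits cover counting error only.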

Other observations

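The 14 lecticans and partners of versican, 12 of them tested, gave 3 higher and 2 lower with LPS in input and 2 higher and 4 lower in the positive fraction. Adamts1, a protease that cleaves versican, rose by 2.03 and 2.06 on the log2 scale, while the brain lecticans Bcan (-0.53 and -0.64) and Ncan (-0.56 and -0.93) fell in both fractions and Vcan was not called in either. The 8 border macrophage genes were all higher in positive than in input in PBS animals (median 3.95), and 5 of the 8 fell with LPS in the positive fraction, among them Lyve1 (-2.39) and Mrc1 (-1.33). Of 9 platelet genes 5 were tested, and Gp1bb fell with LPS by 0.80 in input and by 0.73 in the positive fraction.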
